A study of Zea mays with 54 samples.

Results

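The low phosphate response of SF1 roots was measured as the change between 3 RNA sequencing libraries of low P roots and 3 libraries of high P roots of this maize (Zea mays) genotype. These 6 libraries were taken by their labels from 54 in the whole study, which grew 9 genotypes at both phosphate (P) supplies with 3 replicates in each group. Both groups were root tissue of SF1 and differed in their labels by the P supply, low or high. For comparison, the other 5 genotypes of the same count table (EP1, F2, F160, F142 and SM1, 30 libraries at low and high P) were set beside SF1. The labels give the tissue, the genotype and the P level. Plant age, phosphate concentrations, the breeding class of a genotype and the make-up of a replicate (1 plant or several) are not stated there, and each p-value therefore rests on a spread between libraries that may be technical.

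Phosphate is taken up by the root as inorganic phosphate and is needed for nucleic acids, membrane phospholipids and energy transfer. In plants, transcription factors of the PHR family activate phosphate starvation genes and are held back by SPX proteins while phosphate is plentiful. Known starvation responses of roots include more high-affinity phosphate transporters of the PHT1 family, secreted acid phosphatases, replacement of membrane phospholipids by galactolipids and sulfolipids, and the microRNAs miR399 and miR827, which lower proteins that restrict phosphate uptake and transport.

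The count table lists 46430 features, of which 44146 are nuclear gene models under B73 RefGen_v4 identifiers. The files do not pair these identifiers with names, and 0 of them matched the RefSeq gene table of the NAM-5.0 assembly, so nuclear genes are given by identifier with no role, and lists of phosphate starvation genes or root cell type markers could not be counted. All 365 organelle identifiers matched a RefSeq locus tag. The SF1 libraries held 21578490, 22165782 and 22283670 counts at low P, against 17773921, 20963419 and 21183980 counts at high P. Organelle genes took 0.0260% to 0.0339% of the counts at low P and 0.0326% to 0.0409% at high P. The 154 microRNA precursors in the table, 10 of them MIR399 and 1 MIR827, were listed at 0 in every library of the table, so the microRNA arm of the response was not read here.

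Low P changed 54.9% of the genes tested in SF1 roots. Of 25283 tested genes, 7102 (28.1%) were higher and 6770 (26.8%) lower at low P than at high P, and 11411 did not pass the test (edgeR quasi-likelihood test, Benjamini-Hochberg adjusted p under 0.05). Most called changes were small: 60.2% were under 2-fold, and the median log2 fold change was 0.76 among the higher genes and -0.85 among the lower ones. At least 2-fold, 2660 genes rose and 2857 fell; at a log2 fold change of at least 3, 397 rose and 365 fell, and at a log2 fold change of at least 5, 141 rose and 73 fell. The share of higher genes among the calls depended on the scaling. It was 51.2% after TMM scaling, which centres on the bulk of genes, and 40.2% (5586 higher and 8297 lower) when libraries were scaled by their totals, which moved the median log2 fold change of all tested genes to -0.11. In whole-root RNA, fewer cells of a type and less RNA per cell cannot be told apart.

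A change was called strong when it passed the test, had an absolute log2 fold change of at least 2, and had no overlap between the 3 low P and the 3 high P values in CPM (counts per library total after TMM scaling). SF1 had 1802 strong changes, of which 936 (3.7% of tested genes) rose and 866 (3.43%) fell. Which side was larger depended on the scaling and on single libraries: there were 825 rises and 1003 falls with library totals, 970 and 1132 without low P replicate 2, and 920 and 960 without low P replicate 3. Absence of overlap alone is common in SF1, at 63.9% of tested genes, and an exact permutation test of 3 against 3 libraries cannot go below 0.10, so a call borrows its spread from many genes. That spread was narrow in SF1, with a biological coefficient of variation of 0.14, against 0.153 to 0.241 in the other 5 genotypes of the table.

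**Figure D1:**
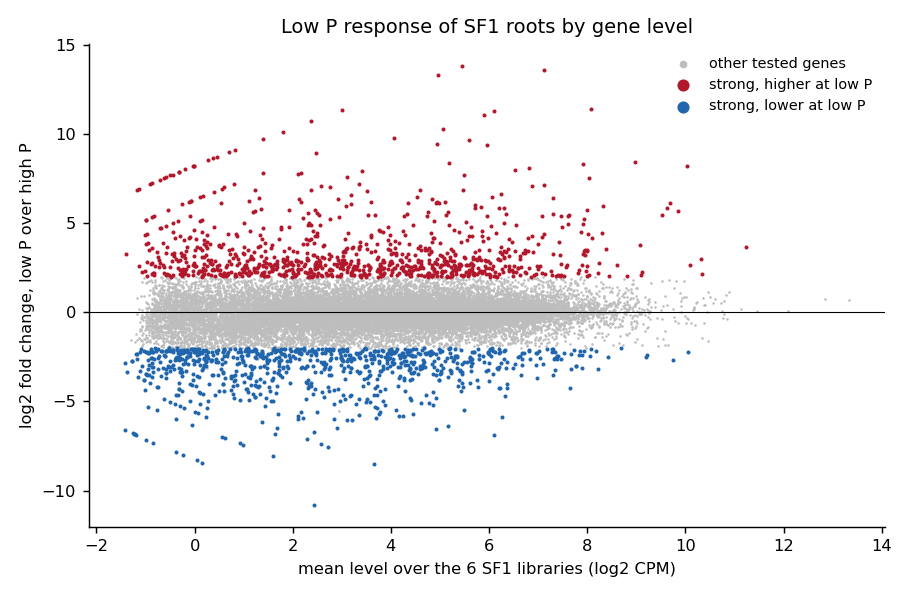
Each point is a gene tested in SF1, with its mean level over the 6 libraries (log2 CPM) on the horizontal axis and its log2 fold change, low P over high P, on the vertical axis. Red points are the 936 strong rises, blue points the 866 strong falls and grey points the other tested genes; strong rises reach a log2 fold change of 13.83 and strong falls one of -10.80.

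Rising genes made up more of the SF1 root transcriptome at low P than falling genes. The 7102 higher genes held 47.4%, 46.3% and 47.8% of all counts in the low P libraries, against 26.8%, 27.8% and 27.5% in the high P libraries. The 6770 lower genes held 17.3%, 18.6% and 17.7% at low P, against 35.8%, 33.9% and 34.7% at high P. For the strong rises the shares were 7.36%, 6.90% and 7.74% at low P and 0.796%, 0.894% and 0.962% at high P. Strong falls held 0.481%, 0.749% and 0.476% at low P and 4.50%, 3.42% and 3.77% at high P. These genes were chosen by the same values, so the shares describe the size of the shift and are not a test. In each of the 4 pairs of shares, low P replicate 2 lay nearer to the high P libraries than the other low P replicates. The 10 most abundant genes of each library held 4.33% to 4.46% of counts at low P and 3.30% to 3.49% at high P.

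Strong changes were counted by expression level. In the lowest quartile of tested genes by mean level, 341 rose and 411 fell strongly; in the highest quartile, 215 rose and 120 fell strongly. All calls together showed another pattern, at 43.7% of genes in the lowest quartile and 63.9% in the highest. The median absolute log2 fold change of called genes was 1.44 in the lowest quartile and 0.58 in the highest.

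Among genes with a mean of at least 5 CPM in the higher group, Zm00001d021047 and Zm00001d020589 had the largest rises. Zm00001d021047 had 83.5, 79.0 and 91.4 CPM in the low P libraries and 0 in all 3 high P libraries. It was at least 1782-fold higher at low P, taking 3 counts over the high P group as the limit that a count of 0 allows; its fitted log2 fold change of 13.83 depends on the fit's prior count and is no bound (adjusted p = 2.96e-07, edgeR). Zm00001d020589 had 282, 231 and 297 CPM at low P, against 0, 0 and 0.0449 CPM at high P, where the whole group held 1 count. Both genes were near silent at high P and clearly present in each low P library. Per length, Zm00001d020589 was the stronger, with 321 FPKM at low P, which ranked it 191 among all features, and 0.0190 FPKM at high P. Its log2 fold change was 13.62 ± 0.29 (approximate SE, n = 3 each, adjusted p = 4.46e-08, edgeR), and the ratio of its pooled counts was 17083, with an exact 95% counting interval of 3066 to 674764. Without high P replicate 3, which held its 1 count, the log2 fold change was 15.49. Both genes were called higher at low P in all of the other 5 genotypes too. For Zm00001d020589 the means there were 173 to 395 CPM at low P and 0.157 to 0.727 CPM at high P.

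Zm00001d041981 and Zm00001d005892 had the largest falls. Zm00001d041981 had 0 counts in all 3 low P libraries, against 8.04, 10.04 and 13.3 CPM at high P, so it was at least 227-fold lower at low P on the same limit (adjusted p = 2.48e-05, edgeR). Zm00001d005892 had 0.0463, 0.0469 and 0.0905 CPM at low P, against 19.3, 30.6 and 24.4 CPM at high P, a log2 fold change of -8.50 ± 0.33 (adjusted p = 6.16e-07, edgeR). For both, the groups were far apart and every low P library lay under 0.1 CPM. Their high P levels in SF1 lay above the means of the other genotypes at high P, which were 0.545 to 3.08 CPM for Zm00001d041981 and 0.923 to 11.2 CPM for Zm00001d005892. Zm00001d041981 was called lower in all of the other 5 genotypes in the joint fit, and its response did not pass the test against their mean (adjusted p = 0.154, edgeR). Zm00001d005892 was also called lower in F160 and SM1 and was not called in EP1, F2 or F142. Its response did not pass the test against the mean of the other 5 (adjusted p = 0.095, edgeR). One by one, it was called different from EP1 (adjusted p = 0.00506) and F2 (3.99e-05, edgeR), and not from F160, F142 or SM1. In F2 one low P library reached 27.9 CPM while the other two had 0.224 and 0.188 CPM.

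SF1 had more strong falls than the other genotypes fitted in the same way. The other 5 had 775 strong rises and 761 falls in EP1, 825 and 792 in F2, 645 and 304 in F160, 935 and 706 in F142, and 1013 and 561 in SM1. As shares of the genes tested in each, the strong rises were 3.08%, 3.29%, 2.57%, 3.7% and 4.06%, and the strong falls 3.03%, 3.16%, 1.21%, 2.8% and 2.25%, in that order of genotypes. All calls, strong or not, covered the 54.9% of tested genes given above in SF1, against 50.3% in F142, 42.8% in EP1, 33% in SM1, 30.3% in F2 and 22.8% in F160. Such counts also move with the spread between replicates, which was wider in the other 5 than in SF1. The difference in counts between genotypes was not tested.

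Most strong rises of SF1 were also called in several of the other genotypes; for strong falls the shares are given beside them, and the difference between rises and falls was not tested. In the joint fit of all libraries of the table, 498 of the 936 strong rises (53.2%) were called higher in all of the other 5 genotypes and 21 (2.24%) in none. Of the 866 strong falls, 865 could be tested in that fit, and 103 of these (11.9%) were called lower in all 5 and 97 (11.2%) in none. The shares of all genes called in all 5 or in none are not given here. These counts are therefore not set against ordinary genes, for which only shares per genotype follow below. The falls also held more genes of low level, as given above, and the part of level in this was not tested.

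**Figure D2:**
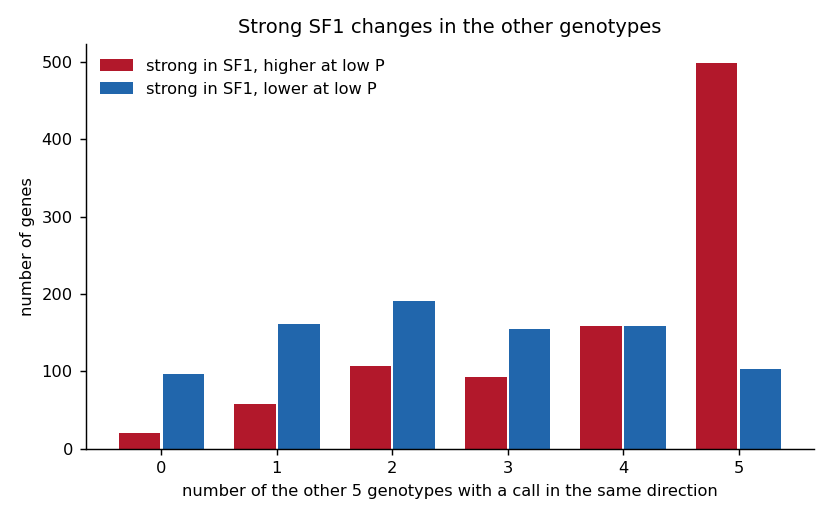
Bars count the strong SF1 changes by the number of the other 5 genotypes in which the gene was called in the same direction in the joint fit; red bars are rises and blue bars falls. Most rises stand at 5 genotypes (498 genes), while falls are spread over the whole range, with 97 genes at 0 and 103 at 5.

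The share of the SF1 strong rises called higher is given here for each other genotype beside its share over all genes, and the differences between genotypes were not tested. It was 86.3% in SM1, where 22.4% of all genes tested were called higher, 84.8% in F142 (21.3% of all genes), 79.0% in F160 (14.4%), 71.6% in EP1 (18.3%) and 71.2% in F2 (18.3%). Strong falls were called lower in 67.4% of cases in SM1, where 21.7% of all genes tested were called lower, 58.2% in F142 (22.5% of all genes), 42.1% in EP1 (17.6%), 41.4% in F160 (10.2%) and 40.1% in F2 (18.4%). Calls in the opposite direction were made for 0.107% (F160) to 3.74% (EP1) of the strong rises, where 10.2% to 22.5% of all genes were called lower, and for 0.925% (SM1) to 8.44% (F2) of the strong falls, where 14.4% to 22.4% of all genes were called higher. Against the other genotypes' own lists of strong changes, the 560 rises shared with F142 were 59.8% of the SF1 list and 59.9% of the F142 list, and the 548 shared with SM1 were 58.5% of the SF1 list and 54.1% of the SM1 list. For falls, the largest number was shared with SM1, at 336 genes, 38.8% of the SF1 list and 59.9% of the SM1 list. With F160, 177 falls were shared, 20.4% of the SF1 list and 58.2% of the shorter F160 list.

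The difference in response was tested directly as SF1's log2 fold change minus that of another genotype. SF1 differed least often from SM1, in 1745 of 28834 tested genes (6.05%), and then from F142 (4950 genes, 17.2%), F160 (5961, 20.7%), F2 (8322, 28.9%) and EP1 (8333, 28.9%; edgeR, adjusted p under 0.05). These 5 comparisons share the SF1 libraries. The SF1 response was more positive in 785 genes (2.72%) and more negative in 960 (3.33%) against SM1. Against F142 it was more positive in 2774 (9.62%) and more negative in 2176 (7.55%), and against F160 in 2811 (9.75%) and 3150 (10.9%). Against F2 the counts were 4320 (15%) and 4002 (13.9%), and against EP1 4274 (14.8%) and 4059 (14.1%). Against the mean response of the other 5, SF1 differed in 6030 genes (20.9%), more positive in 3120 (10.8%) and more negative in 2910 (10.1%). Of the strong rises, 367 were larger in SF1 than in that mean and 9 smaller; of the strong falls, 396 were larger and 7 smaller. Because these genes were chosen for a large change in SF1, a larger value there is partly fixed by the choice.

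**Figure D3:**
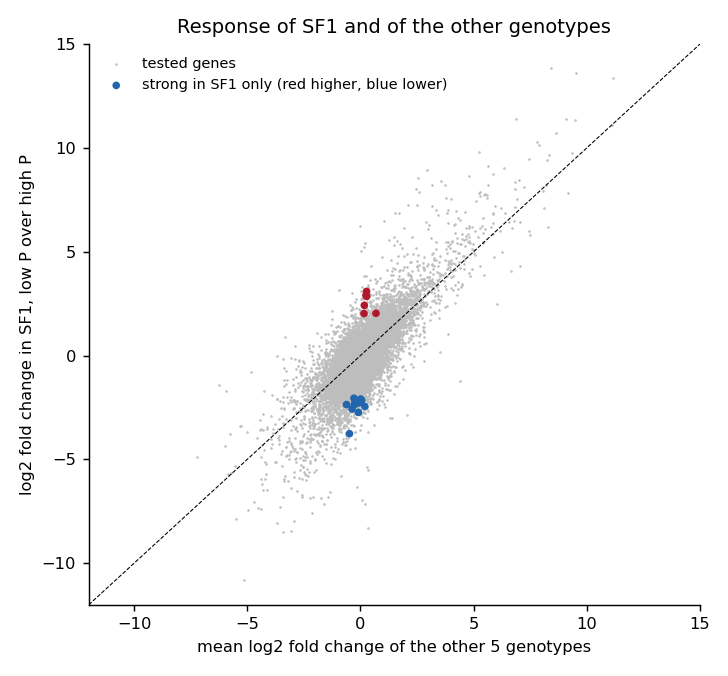
Each point is a gene tested in SF1, with the mean log2 fold change of the other 5 genotypes on the horizontal axis and that of SF1 on the vertical axis, both low P over high P; the dashed line marks equal responses. The 21 coloured points, 6 red above and 15 blue below, are strong in SF1 and near 0 on the horizontal axis.

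Few strong changes met the definition of a change in SF1 alone. A gene was counted as changed in SF1 alone when its change was strong in SF1, its absolute log2 fold change was under 1 in each of the other 5, and its response was called against their mean in the same direction. That left 21 genes, 6 higher and 15 lower, which is 1.17% of the strong changes. All 21 are nuclear gene models. Of these, 12 (4 higher and 8 lower) also passed the test against each of the other 5 one by one. The limit of 1 allows smaller calls elsewhere. In the joint fit, 4 of the 6 rises and 9 of the 15 falls were called in the same direction in no other genotype. The rest were called in the same direction in another genotype too. The median log2 fold change in SF1 was 2.63 for the 6 rises and -2.25 for the 15 falls, while the medians in the other genotypes ran from 0.02 (EP1) to 0.68 (F142) and from -0.47 (F142) to 0.05 (F2). Just inside the limit of 1 the largest response in another genotype was 0.90 for a rise and 0.97 for a fall; just outside, the nearest were 1.01 and 1.003.

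The count depends on SF1 low P replicate 2 and on which genotypes SF1 is set against. Without that library, 38 genes met the definition. Without SM1 among the other genotypes it was met by 64 genes. Without F142 it was met by 32, without EP1 or F2 by 29 each, and without F160 by 28. Leaving out a genotype also removes 1 condition of the definition, and all 21 genes were kept each time.

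Many of the 21 genes had SF1 levels outside the range of the other genotypes. In 10 of the 15 falls the SF1 mean at high P lay above all 10 group means of the other genotypes, and in 9 the SF1 mean at low P lay below all of them. Among the 6 rises, the SF1 mean at low P lay above all other groups in 4, and the SF1 mean at high P below all of them in 2. Genes chosen for a large change in SF1 and a small one elsewhere tend to have an extreme SF1 mean, so these counts describe the 21 genes and test nothing.

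**Figure D4:**
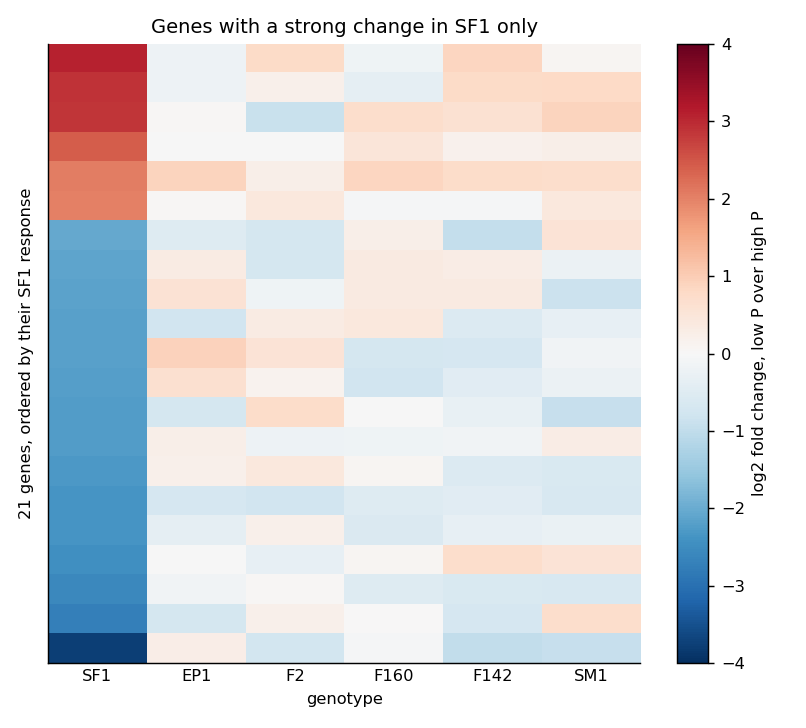
Rows are the 21 genes changed strongly in SF1 alone, ordered by their SF1 response, and columns are the 6 genotypes; colour is the log2 fold change, low P over high P, from -4 (blue) to 4 (red). The first column, SF1, is the darkest by the choice of the genes, and the other 5 columns stay within 1 of 0 by the same rule.

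Zm00001d047340 had the smallest p of these genes for the difference from the other genotypes. It had 63.5, 94.8 and 68.1 CPM in SF1 at low P, against 455, 337 and 389 CPM at high P, with no overlap. Its log2 fold change was -2.37 ± 0.18 (adjusted p = 1.83e-05, edgeR), and the difference from the mean of the other 5 was -2.12 ± 0.19 (adjusted p = 2.87e-08, edgeR). In FPKM it had 63.3 and rank 1780 at low P, against 354 and rank 140 at high P. The other 5 genotypes had means of 36.1 to 76.3 CPM at low P and 45.3 to 113 CPM at high P. The 3 SF1 high P libraries thus stood above every other library of the table, and the SF1 low P libraries overlapped the range of the others. Zm00001d047340 was also called lower at low P in F160 in the joint fit (log2 fold change -0.56, adjusted p = 0.0139, edgeR). Fitted alone, EP1 (-0.38, adjusted p = 0.00608) and F142 (-0.31, adjusted p = 0.0308, edgeR) were called lower as well.

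Zm00001d047814 fell in SF1 and was higher at low P in F142 and SM1. It had 13.3, 32.2 and 14.4 CPM in SF1 at low P, against 111, 94.7 and 124 CPM at high P. The groups did not overlap, and low P replicate 2 was the highest of its group. Its log2 fold change was -2.44 ± 0.31 in SF1 (adjusted p = 3.23e-04, edgeR), and in the joint fit 0.69 in F142 (adjusted p = 0.00983) and 0.53 in SM1 (adjusted p = 0.0462, edgeR). F142 had 97.8, 112 and 109 CPM at low P, against 82.3, 60.5 and 54.6 CPM at high P, so that the gene was about as high in F142 at low P as in SF1 at high P.

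Zm00001d015457 and Zm00001d010634 rose in SF1. Zm00001d015457 had 7.37, 4.83 and 6.61 CPM at low P, against 0.701, 0.714 and 0.809 CPM at high P, a log2 fold change of 3.09 ± 0.24 (adjusted p = 2.33e-05, edgeR). Every library of the other 5 genotypes, at either P level, had under 1.3 CPM of it. The 3 SF1 low P libraries were therefore the only ones in the table clearly above that level. Zm00001d010634 had 7.28, 6.19 and 14.4 CPM at low P, against 1.51, 1.16 and 1.26 CPM at high P, a log2 fold change of 2.85 ± 0.36 (adjusted p = 2.81e-04, edgeR). F160 had 8.47, 7.70 and 8.38 CPM at low P and 5.03, 4.30 and 5.71 CPM at high P. The low P libraries of SF1 and F160 overlapped, while at high P every SF1 library lay below every F160 library. Zm00001d010634 was also called higher at low P in SM1 in the joint fit (log2 fold change 0.90, adjusted p = 0.0397, edgeR). Fitted alone, F160 (0.70, adjusted p = 0.0214) and F142 (0.65, adjusted p = 0.0216, edgeR) were called higher as well.

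**Figure D5:**
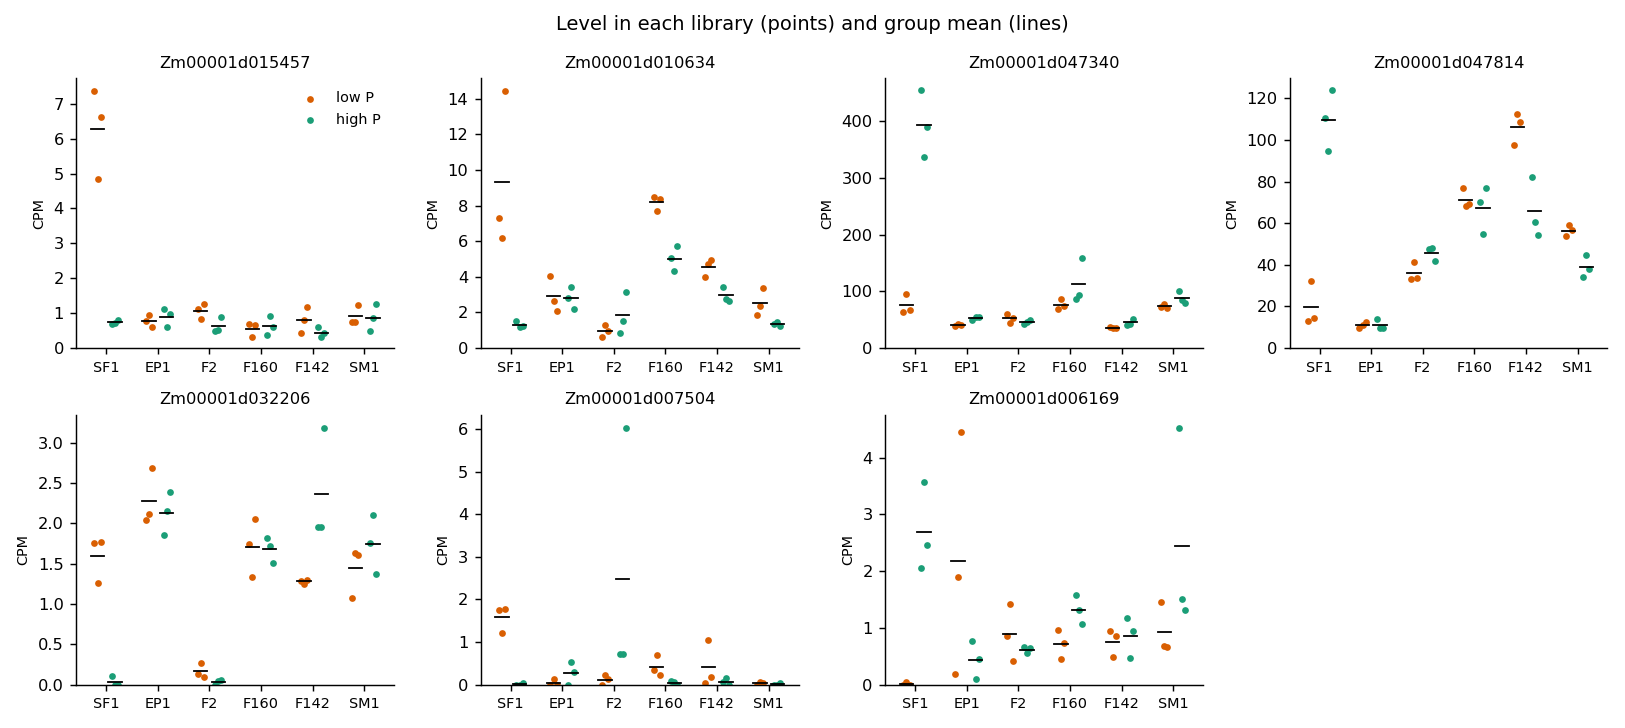
Points are single libraries and short lines are group means, in CPM, for 7 genes; within each genotype low P (orange) stands left of high P (green), and SF1 is the first genotype of each panel. The top row holds genes changed strongly in SF1 alone and the bottom row genes switched on or off in SF1 that were not called in the same direction elsewhere; in Zm00001d015457 the 3 SF1 low P libraries, at 4.83 to 7.37 CPM, stand above all others.

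The definition with a limit of 1 can miss genes that have 0 counts in a whole group of another genotype. Such a group can stand at a single P level, so the gene need not be silent in that genotype. Some of the genes counted next responded in the same direction elsewhere, so they are not all missed changes in SF1 alone. In a group with 0 counts in all 3 libraries the fitted change has no stable size, and edgeR called few such genes against the mean. Of the strong changes, 80 rises and 117 falls had such a group in another genotype. Against the mean, edgeR called 2 and 5 of them, counted in either direction. For limma-voom, which fits log2 values, only calls with the larger change in SF1 were counted, 39 and 73, so the counts of the tools are not alike. Some strong changes were of genes under 1 CPM in all 10 groups of the other genotypes, 22 rises and 71 falls. In SF1 these had a median of 0.807 CPM at low P for the rises and 1.09 CPM at high P for the falls. When the limit of 1 was replaced by no call in the same direction in any other genotype, 60 genes remained with edgeR (10 higher and 50 lower) and 112 with limma-voom (15 and 97). Under these 3 definitions falls outnumbered rises. Falls did not outnumber rises with a limit of 0.5 in the other genotypes (2 higher and 1 lower). With a log2 fold change of at least 3 in SF1, 1 gene was higher and 1 lower.

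A gene was called switched on when it had at most 3 counts in all over the 3 high P libraries and at least 1 CPM in each low P library, and switched off in the reverse case. SF1 had 41 genes switched on (0.0883% of all features listed) and 16 switched off (0.0345%), all nuclear, and all passed the edgeR test. In the other genotypes the same rule gave 33 on and 15 off in EP1, 22 and 25 in F2, 23 and 5 in F160, 41 and 23 in F142, and 21 and 7 in SM1. In SF1, 15 of the genes switched on had 0 counts at high P, and their low P means ran from 1.43 to 270 CPM with a median of 2.98. The genes switched off were weaker, at 1.19 to 10.5 CPM at high P with a median of 2.02, and 2 of them had 0 counts at low P. The number switched off was 28, 38 and 27 without low P replicates 1, 2 and 3. Leaving out a library can only loosen the rule, so none of these numbers could lie below 16.

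Most genes switched on in SF1 also responded elsewhere: 27 of 41 were called higher in EP1 (18.3% of all genes tested were), 31 in F2 (18.3%), 34 in F160 (14.4%), 34 in SM1 (22.4%) and 37 in F142 (21.3%). All of the other 5 called 22 of them, and at least 3 called 34. Even so, 14 of the 41 were switched on by the same rule in no other genotype: there they held more than 3 counts at high P or under 1 CPM in a low P library. Of the 16 switched off, 9 were called lower in EP1 (17.6% of all genes), 9 in F2 (18.4%) and 9 in F160 (10.2%). In SM1 10 were called lower (21.7% of all genes), and in F142 11 (22.5%). All of the other 5 called 3 of the 16, and at least 3 called 10. The shares of all genes called in all 5 or in at least 3 genotypes are not given here. The counts of that kind, for genes switched on or off, are therefore not set against ordinary genes. None of the 57 met the definition of a change in SF1 alone with the limit of 1.

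By CPM at low P, Zm00001d004308 stood next to Zm00001d020589 among the genes switched on. It had 131, 123 and 149 CPM at low P, against 0.0540, 0.0893 and 0 CPM at high P, where the group held 3 counts. The ratio of pooled counts was 2832, with an exact 95% counting interval of 969 to 13735, and the log2 fold change ran from 10.75 without high P replicate 3 to 12.12 without high P replicate 2. Its log2 fold change of 11.32 ± 0.25 (adjusted p = 4.55e-08, edgeR) did not pass the test against the mean of the other 5 (adjusted p = 0.24, edgeR), where it had 71.0 to 166 CPM at low P and 0.0593 to 0.477 CPM at high P. By CPM at high P, Zm00001d029955 stood next to Zm00001d041981 among the genes switched off. It had 0, 0.141 and 0 CPM in SF1 at low P, against 7.01, 4.78 and 6.11 CPM at high P, and its fall was larger than the mean of the other 5 (difference in log2 fold change -4.26 ± 1.01, adjusted p = 0.00302, edgeR). All 3 SF1 high P libraries were above every other library of the table. In the joint fit Zm00001d029955 was also called lower in EP1, F160, F142 and SM1. Its SF1 response was not called different from that of F160 (adjusted p = 0.0706), F142 (0.0984) or SM1 (0.27, edgeR). Its log2 fold change in SF1 was -6.82, and -9.99 without low P replicate 2, which held its 3 counts.

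Of the 57 switched genes, 3 were called in the same direction in no other genotype; they are named after their values were seen. Zm00001d032206 had 1.76, 1.27 and 1.77 CPM in SF1 at low P, against 0.108, 0 and 0 CPM at high P. EP1, F160, F142 and SM1 expressed it at both P levels, with means of 1.28 to 2.28 CPM at low P and 1.68 to 2.36 CPM at high P, and F2 was near silent at both, with 0.168 and 0.0384 CPM. SF1 at low P was thus at the level that 4 other genotypes had at either P supply, and SF1 at high P was at the level of F2. In F142 it was called lower at low P, at 1.28 CPM against 2.36 CPM at high P (log2 fold change -0.89, adjusted p = 0.0232, edgeR, joint fit). The difference from the mean of the other 5 was 5.21 ± 0.63 on the log2 scale (adjusted p = 2.06e-06, edgeR). Its size rests on 2 counts in high P replicate 1: the log2 fold change in SF1 was 5.43 with that library and 8.15 without it.

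Zm00001d007504 had 1.76, 1.22 and 1.77 CPM in SF1 at low P, against 0, 0 and 0.0449 CPM at high P. In F2 it moved the other way, with 0, 0.230 and 0.141 CPM at low P and 0.717, 0.715 and 6.02 CPM at high P, and was called lower (log2 fold change -4.25, adjusted p = 0.00153, edgeR, joint fit). One F2 high P library was much the highest of the table. F160 had 0.349, 0.688 and 0.233 CPM at low P, against 0.0958, 0.0574 and 0 CPM at high P, a log2 fold change of 2.87 that did not pass the test, and F142 had one of 2.52 that did not pass either. The SF1 response was not called different from that of F160 (adjusted p = 0.375), F142 (0.302) or SM1 (0.545, edgeR). The SF1 log2 fold change was 6.21, and 8.08 without high P replicate 3, which held the 1 count of that group. Zm00001d006169 was switched off, with 0, 0.0469 and 0 CPM in SF1 at low P, against 2.05, 3.57 and 2.47 CPM at high P. In EP1 it was called higher at low P, with 0.194, 1.90 and 4.45 CPM at low P and 0.771, 0.107 and 0.458 CPM at high P, groups that overlap (log2 fold change 2.27, adjusted p = 0.0106, edgeR, joint fit). The SF1 log2 fold change was -6.98, and -8.85 without low P replicate 2, which held its 1 count.

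Of 1765 non-coding RNA features, 92 were tested, of which 24 (26.1%, against 28.1% of all tested genes) were higher and 8 (8.70%, against 26.8%) lower at low P, with a median log2 fold change of 0.54, against 0.0069 over all tested genes. Of 13 mitochondrial features tested, 3 (23.1%) were higher and 2 (15.4%) lower, and both plastid features tested were higher. The plastid gene matK, which encodes a maturase for intron splicing, had 1.34, 2.02 and 0.724 CPM at low P, against 0.162, 0.134 and 0.180 CPM at high P (log2 fold change 3.07 ± 0.51, adjusted p = 0.00122, edgeR). In the joint fit matK was called higher at low P in all of the other 5 genotypes too. Its SF1 response did not pass the test against their mean (adjusted p = 0.43, edgeR). The mitochondrial rRNA feature rrn16-ct had 0.834, 0.985 and 0.770 CPM at low P and 0, 0.0446 and 0 CPM at high P (log2 fold change 5.34 ± 0.67, adjusted p = 2.77e-04, edgeR). That value was 7.21 without high P replicate 2, which held its 1 count, and 4.86 without high P replicate 3. In the joint fit rrn16-ct was also called higher in F2 (adjusted p = 0.00657) and F142 (adjusted p = 0.00352, edgeR). The SF1 response of rrn16-ct was not called different from that of F142 (adjusted p = 0.0966, edgeR). It was called different from those of EP1, F2, F160 and SM1. Every organelle feature called lay under 1.4 CPM in its higher group mean, and reads of near-identical copies, in the plastid or the nucleus, could have been split or moved in the counting. The plastid rRNA feature ZemaCr119 and the mitochondrial reading frames orf101-a and orf147-b were higher at low P, and orf110-c and orf140-b lower, all at group means under 1 CPM; the log2 fold change of ZemaCr119 was 3.59, and 7.13 without high P replicate 3. The calls of orf147-b, orf110-c and orf140-b were lost with DESeq2 (adjusted p = 0.0722, 0.0662 and 0.0605) and without single libraries.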

How the data were processed

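Per the labels' protocols, root RNA was extracted with a plant RNA column kit and made into NEBNext Ultra libraries. The authors deposited raw read counts per gene, made with fastp, HISAT2 and HTSeq on B73 RefGen_v4, as the submitters' processing notes list them; the sources used here give neither their versions nor the strand setting. The deposited FPKM values equalled scaled counts in 1067424 of 1067424 values above 0 (relative tolerance 0.001), and were used only for ranks per length.

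SF1 was fitted alone with edgeR 4.0.16 (quasi-likelihood F-test, TMM, filterByExpr) in R 4.3.3; differences between genotypes came from 1 fit of the 6 genotypes, which share 1 trend of spread. SEs are approximate: the size of the log2 fold change divided by the root of F. CPM uses TMM-scaled totals. A count of 0 in 1 SF1 library allows 0.134 to 0.162 CPM (3 counts). Such limits, like the intervals given, cover counting error only. Replicate pairs differed by more than sampling noise (lowest chi-square in SF1 8.52 per degree of freedom), so none was merged.

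Genes without a symbol were named up to 2 in each direction for the largest changes, changes in SF1 alone (by p) and switched genes, with at least 5 CPM unless switched; called organelle features were added. The genotype, definitions and lists were chosen with earlier results of these data known. Alternatives included DESeq2 1.42.0, limma-voom (limma 3.58.1), other scalings and filters, and leaving out libraries or genotypes. The scripts were tested on simulated data. The second count table, of 3 genotypes, was not used here.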

Additional observations from a re-analysis of the deposited data

Results flagged for a closer look

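These results are listed because the test of the difference between SF1 and other genotypes passed the threshold (edgeR, adjusted p under 0.05). The low P response of SF1 differed from the mean of the other 5 genotypes in 6030 genes, in 1745 from that of SM1, in 4950 from F142, in 5961 from F160, in 8322 from F2 and in 8333 from EP1.

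Among the named genes that rose in SF1, the log2 response in SF1 minus the mean of the other 5 was 5.34 for Zm00001d021047 and 4.07 for Zm00001d020589. Both rose in all 6 genotypes, and both had 0 or 1 count at high P in SF1, so these differences depend on the prior count of the fit. At low P the SF1 mean of Zm00001d020589, 270 CPM, lay within the 173 to 395 CPM of the other genotypes. The difference was 2.80 for Zm00001d015457 and 2.55 for Zm00001d010634, which met the definition of a change in SF1 alone. Zm00001d010634 was also called higher in SM1 in the joint fit. For Zm00001d032206 and Zm00001d007504, which were switched on in SF1 and had 2 and 1 counts at high P, the difference was 5.21 and 6.21.

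Among genes that fell in SF1, the difference was -2.12 for Zm00001d047340, -2.65 for Zm00001d047814, -4.26 for Zm00001d029955 and -7.06 for Zm00001d006169; Zm00001d029955 had 3 counts and Zm00001d006169 had 1 in SF1 at low P. For the mitochondrial rRNA feature rrn16-ct (ZeamMr001), which was higher at low P, it was 3.82, at 0.863 CPM in SF1 at low P against 0.0149 CPM at high P.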

How the results depend on the processing

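No named gene changed direction under the alternatives run, but the balance of rises and falls did. Library totals gave 5586 higher and 8297 lower calls in SF1, and 2648 more positive and 3107 more negative genes against the mean of the other 5, where TMM gave 3120 and 2910. The 13872 SF1 calls became 12124 to 12960 without single libraries, 13240 with DESeq2 and 13908 with limma-voom. The count of genes changed in SF1 alone, 21, was the least stable. It was 36 with DESeq2, 44 with limma-voom and 20 to 38 without single SF1 libraries (highest without low P replicate 2). Leaving out a genotype gave 28 to 32 for EP1, F2, F160 or F142, and 64 for SM1. The count was 3 (2 higher and 1 lower) with a limit of 0.5 in the other genotypes. With a log2 fold change of at least 3 in SF1 the count was 2 (1 higher and 1 lower). It was 12 when also called against each other genotype, and 60 (edgeR) or 112 (limma-voom) by the absence of a call elsewhere. SF1 against F142 gave 7430 calls with limma-voom. The 57 switched genes became 29 with at least 2 CPM, 106 with at least 0.5 CPM and 17 with 0 counts in the lower group. They were 68 to 85 without single libraries, where the same limits apply to fewer libraries and the number cannot fall. The cause of the other moves was not tested. The choices of leaving out EP1, F2, F160 or F142, of the absence of a call and of a call against each genotype were made after seeing the data.

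Replicate numbers did not pair the SF1 libraries: the deviations of same-numbered low P and high P libraries correlated at 0.012, -0.178 and 0.022 across genes, and not every library correlated best with its own number. With the replicate number as a block, SF1 had 12864 calls, 5307 genes differed from the mean of the other 5, and 23 genes changed in SF1 alone.

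Fold changes of genes with 0 to 4 counts in one group move with single counts. A level under 0.134 to 0.162 CPM in 1 SF1 library cannot be told from 0 by the 3 count limit.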

Other observations

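Strong changes of SF1 fell on shorter gene models than the average tested gene. By the deposited gene lengths, the median was 1418 bases for the 936 strong rises and 1157 bases for the 866 strong falls, against 1788 bases for all genes tested in SF1. The falls also held the most genes of low level, and the difference in length was not tested.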
